A study of Mus musculus with 12 samples.

Results

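Respiratory complex I, NADH:ubiquinone oxidoreductase, takes electrons from NADH in the mitochondrial matrix, passes them to ubiquinone and pumps protons across the inner membrane. The genes described here are the nuclear-encoded genes of this complex, with subunits and assembly factors together. They were chosen by symbol alone, as every row of the count table named Ndufa, Ndufab, Ndufb, Ndufc, Ndufs, Ndufv or Ndufaf followed by a number, and 45 of the 25284 genes of the table fit. The rule used no measured value. The 45 members fall into 7 core subunits, which carry out the catalysis, 29 accessory subunits around them, 7 assembly factors that are not part of the finished enzyme, and the pair Ndufa4 and Ndufa4l2. The product of Ndufa4 is now assigned to cytochrome c oxidase, and Ndufa4l2 is its paralog.

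RNA was sequenced from the thoracic aorta of 12 male mice. All 12 were ApoE-/-, which removes apolipoprotein E from every cell of the animal, had a C57BL/6 background and ate a diet rich in fat and cholesterol. Osmotic minipumps gave vehicle to 6 control mice (C1 to C6) and the α7nAChR agonist AZ6983, at 50 µmol per kg per day, to 6 mice (A1 to A6) for 8 weeks, and all were 18 weeks old when sampled. No labels mark shared litters or days, and separate mouse numbers name the samples, so each mouse was taken as a replicate.

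Brown adipocytes are packed with mitochondria, and their uncoupling protein Ucp1 lets protons return to the matrix without making ATP, so that the energy of the gradient that complex I helps to build is released as heat. The fat that surrounds the mouse thoracic aorta is known for its brown character. The main question was therefore whether complex I transcripts followed Ucp1 from mouse to mouse, and the other was whether they differed between the 6 AZ6983 and the 6 control mice. In bulk tissue, fewer cells of a type and less RNA per cell cannot be told apart.

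The members are spread over 16 chromosomes, though Ndufs8 and Ndufv1 lie close together on chromosome 19. The promoters of the members were read for the short sequences that NRF1, an activator of many respiratory chain genes, and other factors bind. RefSeq windows of 300 bases, from 250 before to 50 after a gene's start, were at hand for 39 members (GRCm38.p6). The NRF1 letters, GCGCA followed by any base and GCGC, read on both strands, were present in 24.4% of the 41 member windows and in 4.60% of the 32851 windows of all genes. They were found in 9 members, namely Ndufa5, Ndufa6, Ndufa8, Ndufa11, Ndufaf4, Ndufaf5, Ndufb4, Ndufs5 and Ndufs6. The YY1 letters AANATGGCG were in 17.1% of member windows and 2.38% of all, the ETS letters ACCGGAAG in 9.76% and 2.30%, the SP1 letters CCCCGCCC in 22.0% and 17.6%, and the letters TNAAGGTCA of estrogen-related receptors in 2.44% and 1.28%. None of these motifs contains another, both strands were read for each, and a match describes letters and not binding. Ndufa2, Ndufa4l2, Ndufaf6, Ndufb9 and Ndufs1 were among those with no window.

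Stretches before the start of 6 members are printed, for 4 genes with a motif in the stretch and for Ndufab1 and Ndufaf3, with none in it. Ndufab1 and Ndufaf3 stood at opposite ends of the order by slope on Ucp1 among members with a window. Outside the printed stretches, SP1 letters were also found in windows of Ndufaf1 and Ndufaf3, and those of estrogen-related receptors in a window of Ndufb4. All stretches are read 5′ to 3′ on the gene's strand, lie outside the exons of GENCODE M21, and have in capitals the motif letters found in them. Ndufaf4 (chr4:24897963-24898082, plus strand) holds NRF1 and then SP1 letters, Ndufs5 (chr4:123718203-123718302, minus strand) and Ndufb4 (chr16:37654519-37654618, minus strand) hold NRF1 letters, Ndufaf1 (chr2:119662835-119662934, minus strand) holds ETS letters, and Ndufab1 (chr7:122101887-122101986, minus strand) and Ndufaf3 (chr9:108567437-108567532, minus strand) hold none of the letters searched.
Ndufaf4: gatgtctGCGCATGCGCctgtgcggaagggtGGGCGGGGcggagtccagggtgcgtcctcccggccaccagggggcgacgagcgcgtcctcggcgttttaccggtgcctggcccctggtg
Ndufs5: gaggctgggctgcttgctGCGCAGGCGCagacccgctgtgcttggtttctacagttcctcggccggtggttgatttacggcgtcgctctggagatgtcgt
Ndufb4: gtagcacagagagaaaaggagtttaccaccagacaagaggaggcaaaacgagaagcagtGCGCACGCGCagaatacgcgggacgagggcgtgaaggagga
Ndufaf1: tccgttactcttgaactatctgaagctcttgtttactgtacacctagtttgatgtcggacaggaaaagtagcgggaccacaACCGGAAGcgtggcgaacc
Ndufab1: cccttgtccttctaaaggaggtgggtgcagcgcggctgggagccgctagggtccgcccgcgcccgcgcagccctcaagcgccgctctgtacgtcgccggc
Ndufaf3: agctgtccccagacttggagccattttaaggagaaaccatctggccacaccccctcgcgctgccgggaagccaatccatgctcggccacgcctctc

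Each mouse gave between 23810036 and 35864666 counts on genes. A member had between 118 and 15210 counts in a mouse, and all 45 passed the filter on low counts. Counting error weighs more on members with few counts, such as Ndufa4l2 with 118 to 220, and is not small beside its spread. Levels are given as CPM, counts scaled by library size with TMM factors, and as log2 CPM. A few libraries stood apart on measures other than the members. In A5 the 10 most abundant genes held 30.2% of the counts and the mitochondrial genes 24.0%, against 16.0% to 22.1% and 9.96% to 17.0% in the other 11 mice. A4 carried 577 CPM of the thymocyte gene Rag1, against 0.149 to 21.3 CPM elsewhere. Reads that fell on no gene were 8.02% to 12.7% of reads in controls and 11.2% to 14.9% in AZ6983 mice.

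Core and accessory subunits overlapped in level, and the assembly factors lay below both. On the scale of mean CPM per kilobase of the shortest principal transcript, the core subunits named here lay at 103 to 186, from Ndufs7 to Ndufv1. Assembly factors lay at 5.56 to 19.6. Accessory subunits covered 34.4 to 361, from Ndufb2 to Ndufb9. The paralogs stood far apart, with Ndufa4 the highest of all members at 717 and Ndufa4l2 at 6.18 CPM per kilobase, next to the lowest, Ndufaf6. These levels rest on the transcript chosen for the length, and 22 of the 45 genes are overlapped by another annotated gene, so neighbours in the order were not tested against each other.

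The members varied largely together. The first principal component of their log2 CPM held 89.5% of their variance over the 12 mice, against 32.4% for all genes tested. The highest mouse was A5 for 41 of the 45 members. The lowest was A2 for 22 members and C6 for 17. The ratio of the highest to the lowest mouse was 1.39 to 2.34 over the members, with a median of 1.87. The heat map orders the mice by Ucp1 and not by the members, which puts A5 at one end and C6 next to the other AZ6983 mice.

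**Figure D1:**
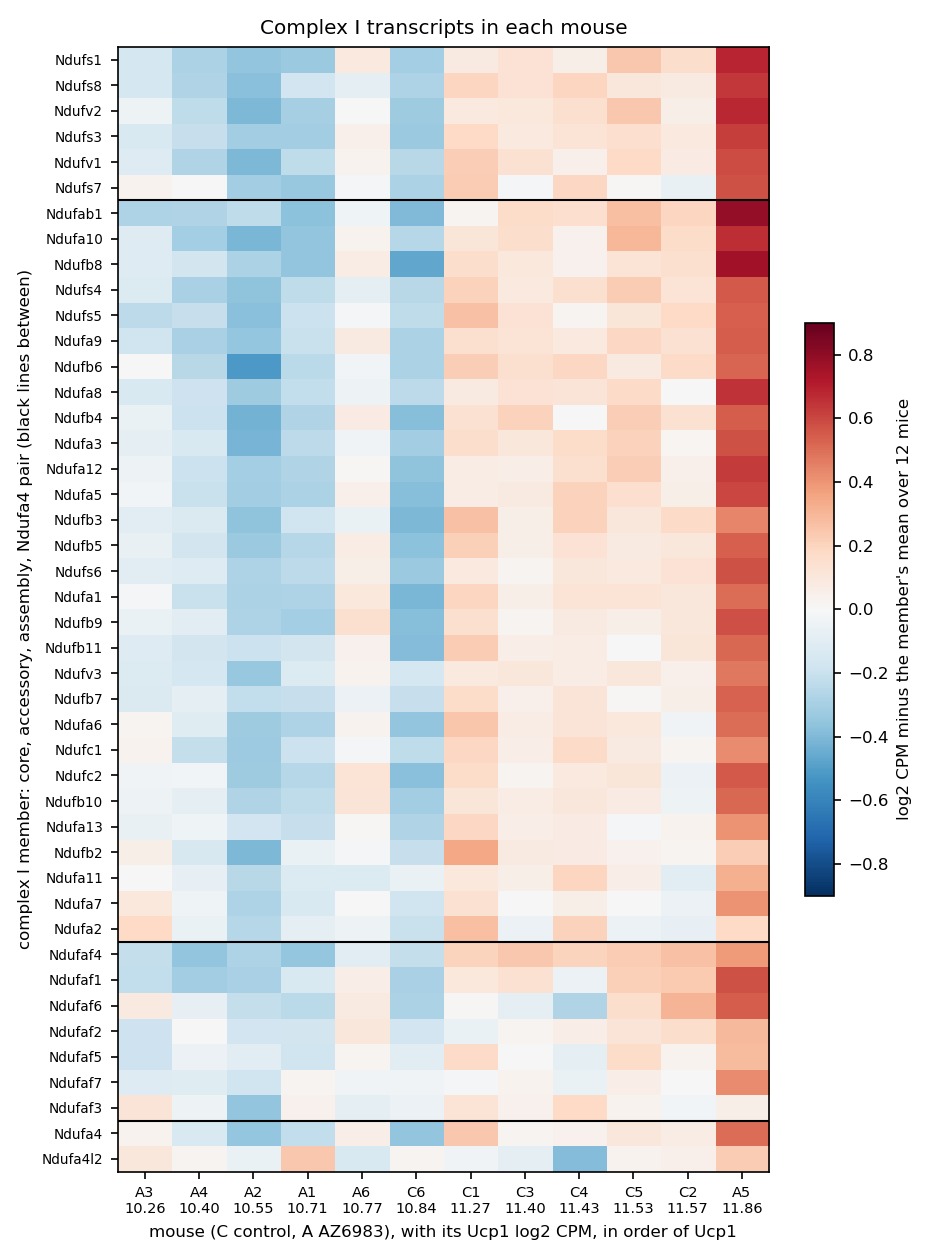
Log2 CPM of 44 of the 45 members (rows, by role and then by slope) in each of 12 mice (columns, in order of Ucp1), minus the member's mean. A5 is the highest mouse for 41 of the 45 members, and the 6 mice with the least Ucp1 are mostly below the mean.

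Ucp1 itself separated the mice. It was 1834 CPM in C6 and 2464 to 3034 CPM in the other 5 controls. It was 1228 to 1741 CPM in 5 AZ6983 mice and 3728 CPM in A5. On the log2 scale controls ran from 10.84 to 11.57 with a median of 11.42, and AZ6983 mice from 10.26 to 11.86 with a median of 10.63. The groups overlapped through A5 alone, as C6, the lowest control, lay above the other 5 AZ6983 mice (at most 10.765). The group means of Ucp1 differed by -0.58 (exact permutation test, two-sided, p = 0.0541). In the edgeR test across all genes its log2 fold change was -0.49 ± 0.251 (SE, adjusted p = 0.518), and without A5 it was -0.83 ± 0.142 (adjusted p = 0.0675) and passed 10% FDR. The widest gap in the order, 0.43 log2, left 6 mice below it (A1, A2, A3, A4, A6 and C6) and 6 above it (C1 to C5 and A5).

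Most complex I transcripts followed Ucp1. Their slope, the log2 change of a member per log2 change of Ucp1 over the 12 mice, was positive and passed 10% FDR for 28 of 45 members, and it was negative and passed for 0. Over all 15856 genes tested, Ucp1 left out, 4.94% were called positive and 1.19% negative. The median slope was 0.36 over the members and -0.04 over all genes. Of the core subunits 6 of 7 were called, of the accessory subunits 20 of 29, of the assembly factors 2 of 7, and of the Ndufa4 pair 0 of 2. The median slopes of these groups were 0.45, 0.36, 0.23 and 0.15. Slopes below 1 mean that members changed less than Ucp1 did.

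**Figure D2:**
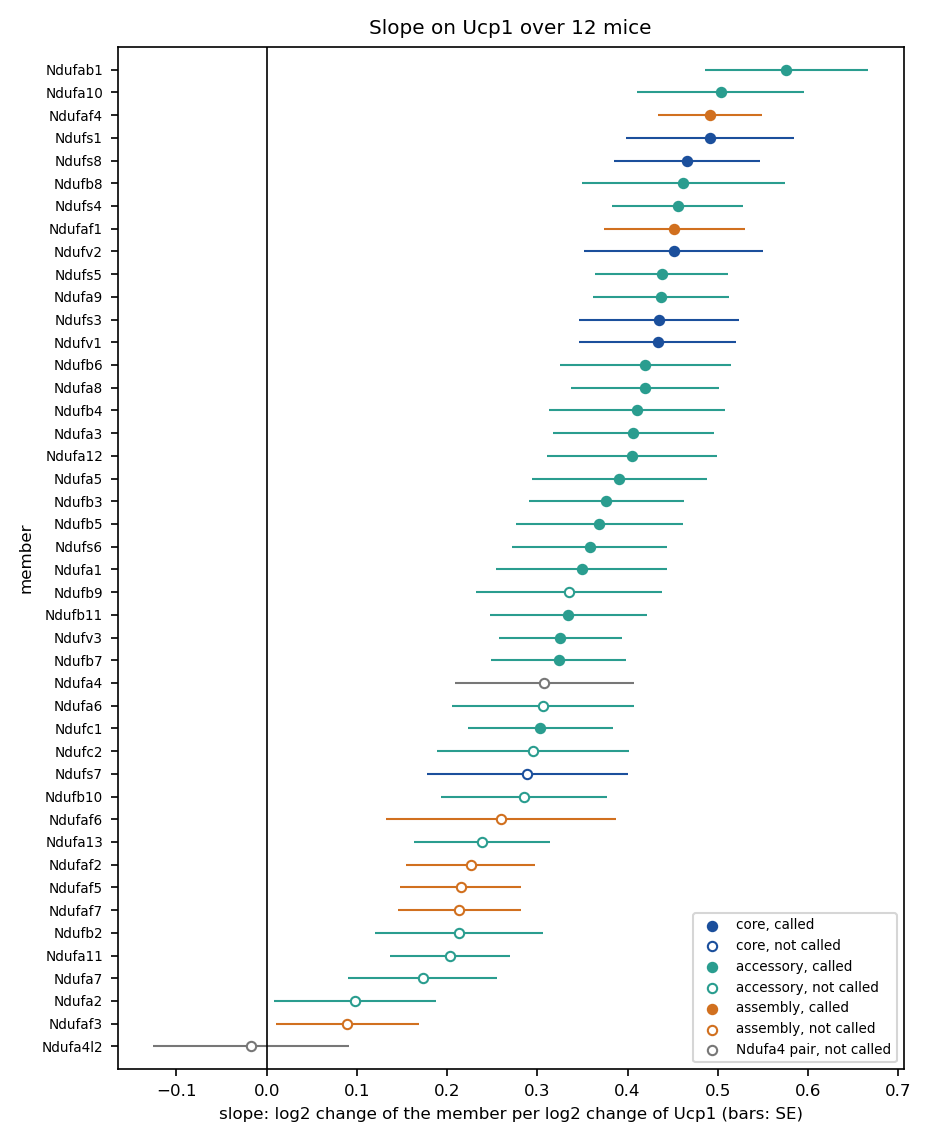
Slope on Ucp1 of 44 of the 45 members with its SE, over 12 mice. Filled points passed 10% FDR, which 28 of all 45 did, and the slopes run from -0.02 for Ndufa4l2 to 0.58 for Ndufab1.

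The 3 core subunits of the NADH-oxidising arm rose with Ucp1. Ndufv1, which binds the flavin that takes electrons from NADH, was 256 to 355 CPM in controls with a median of 327, and 230 to 456 CPM in AZ6983 mice with a median of 270. Its slope was 0.43 ± 0.087 (SE, adjusted p = 0.0165). Ndufv2, an iron-sulfur subunit beside it, was 189 to 279 CPM (median 253) in controls and 179 to 380 CPM (median 216) in AZ6983 mice. Its highest value was again in A5, and its slope was 0.45 ± 0.0995 (adjusted p = 0.0262). Ndufs1, the largest iron-sulfur subunit, was 313 to 456 CPM (median 415) in controls and 302 to 621 CPM (median 331) in AZ6983 mice, with a slope of 0.49 ± 0.0935 (adjusted p = 0.0129). Without A5 the AZ6983 mice reached at most 410 CPM of Ndufs1, so the 2 groups overlapped mainly through A6, C6 and A5.

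Of the core subunits nearer the ubiquinone site, Ndufs8 and Ndufs3 rose with Ucp1. Ndufs8, which carries iron-sulfur clusters, was 97.1 to 135 CPM (median 127) in controls and 90.6 to 183 CPM (median 105) in AZ6983 mice, with a slope of 0.47 ± 0.0808 (adjusted p = 0.00808). Ndufs3, another subunit of this module, was 89.1 to 127 CPM (median 121) in controls and 90.2 to 173 CPM (median 99.5) in AZ6983 mice, with a slope of 0.43 ± 0.0885 (adjusted p = 0.0178). Ndufs7, which carries the last cluster before ubiquinone, did not pass, with 63.1 to 89.7 CPM (median 76.7) in controls, 60.6 to 114 CPM (median 76.5) in AZ6983 mice and a slope of 0.29 ± 0.111 (adjusted p = 0.184).

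Among accessory subunits the steepest slope was that of Ndufab1, the mitochondrial acyl carrier protein, which also serves fatty acid synthesis and iron-sulfur cluster assembly. It was 87.6 to 139 CPM (median 129) in controls and 89.5 to 200 CPM (median 97.1) in AZ6983 mice, and its slope was 0.58 ± 0.0905 (adjusted p = 0.00533). A5 alone was above every control, and C6 was below every AZ6983 mouse. The other 5 steepest were Ndufa10 (0.50), Ndufb8 (0.46), Ndufs4 (0.46), Ndufs5 (0.44) and Ndufa9 (0.44), and all of them were called. Loss of Ndufs4 causes a Leigh-like disease in mice. Leaving Ndufa13 aside, the 5 flattest accessory subunits were Ndufa2 (0.10), Ndufa7 (0.17), Ndufa11 (0.20), Ndufb2 (0.21) and Ndufb10 (0.28), and none of these 5 was called (adjusted p = 0.117 to 0.626). Ndufa13, also known as GRIM-19 and as a partner of STAT3, had a slope of 0.24 ± 0.0754 (adjusted p = 0.111).

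The assembly factors were split. Ndufaf4, which acts with Ndufaf3 on the arm that holds the ubiquinone site, had the smallest p of all members, with a slope of 0.49 ± 0.058 (adjusted p = 0.00146). It was 39.6 to 55.1 CPM (median 53.1) in controls and 35.8 to 59.6 CPM (median 38.6) in AZ6983 mice. Apart from A5 the AZ6983 mice reached 42.8 CPM, below all controls but C6. Its partner Ndufaf3 was 15.3 to 18.0 CPM (median 16.3) in controls and 12.4 to 17.2 CPM (median 15.9) in AZ6983 mice, and its slope was 0.09 ± 0.0791 (adjusted p = 0.608). Ndufaf1, of the assembly complex for the membrane arm, was the other called factor, with a slope of 0.45 ± 0.0784 (adjusted p = 0.00808). Ndufaf2, a late-acting chaperone, Ndufaf5, which hydroxylates an arginine of Ndufs7, Ndufaf6, and Ndufaf7, an arginine methyltransferase, had slopes of 0.23, 0.21, 0.26 and 0.21 with adjusted p of 0.107 to 0.309.

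The pair Ndufa4 and Ndufa4l2 differed in level and in slope. Ndufa4 was 250 to 378 CPM (median 332) in controls and 252 to 454 CPM (median 308) in AZ6983 mice, and its slope of 0.31 ± 0.0997 did not pass (adjusted p = 0.118). Ndufa4l2, which is induced by hypoxia, was 4.39 to 5.93 CPM (median 5.73) in controls and 5.22 to 6.79 CPM (median 6.00) in AZ6983 mice. Its slope was -0.02 ± 0.109 (adjusted p = 0.967), and under several other settings it was slightly above 0. The difference between the slopes of the pair was not tested.

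**Figure D3:**
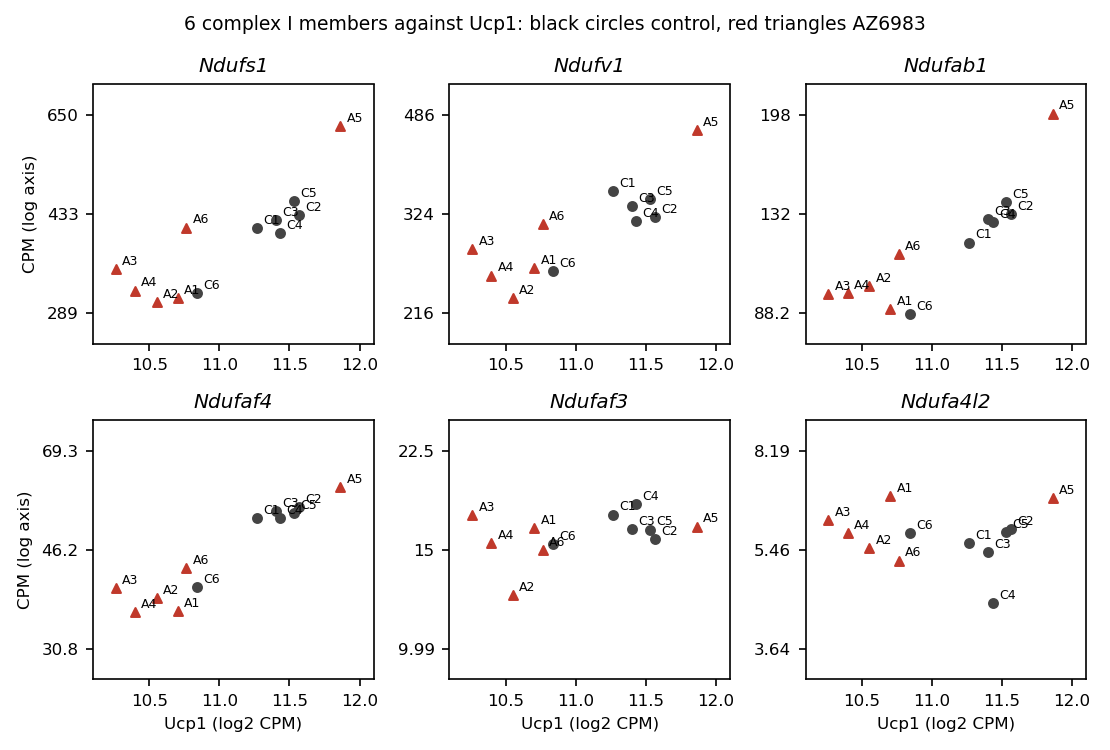
CPM of 6 members (log axis, each panel spanning the same fold range) against Ucp1 log2 CPM, with 1 point per mouse. The top row and Ndufaf4 are highest in A5 and lower in the 6 mice with the least Ucp1, except that Ndufs1 in A6 lies above C1 and C4. Ndufaf3 and Ndufa4l2 show slopes of 0.09 and -0.02.

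The slope rested in part on single mice and on the split between the 2 sets of mice. Without A5 it passed for 14 of 45 members (2.27% of all genes), with a median slope of 0.29, and Ndufaf4 still had 0.51 (adjusted p = 0.00543). Without A4 and A5 it passed for 4 (0.949% of all genes). Within the 6 mice with less Ucp1, Pearson's r with Ucp1 was positive for 14 of 45 members with a median of -0.24, beside 49.6% of all genes with a median of -0.0058. Within the 6 mice with more Ucp1 it was positive for 42 of 45 with a median of 0.74, beside 52.5% of all genes with a median of 0.058. Those values are a description of 6 mice each, which differ in depth, and the upper set includes A5.

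The treatment group overlaps with Ucp1, so both were also placed in 1 model. With group in the model 41 of 45 members were called positive (9.54% of all genes), with a median slope of 0.48. In the AZ6983 mice alone 29 were called (5.83% of all genes), and in the control mice alone 1 was called (0.394%), with 30 at an unadjusted p under 0.05 against 7.67% of all genes. The difference between the groups in slope was tested as an interaction, and 0 members and 0 genes were called (edgeR quasi-likelihood test). At an unadjusted p under 0.05 the interaction took 0 members, 2.56% of genes in the positive and 2.69% in the negative direction, and limma-voom called 0 as well. The median difference in slope over the members was -0.08, and it was 0.66 without C6 and -0.50 without A5, so single mice set its direction. With both C6 and A5 left out and group in the model, 0 members were called on Ucp1, 0 had an unadjusted p under 0.05 and the median slope was 0.04 with 27 of 45 above 0, while 2.98% of all genes had a positive slope at that p.

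A wider measure of brown fat gave the same direction. The mean log2 CPM of 13 brown fat genes without Ucp1, among them Cidea, Otop1, Pdk4 and Fabp3, was used in its place. On this measure 42 of 45 members were called positive (9.52% of all genes), with a median slope of 0.68, including 7 of 7 core subunits, 28 of 29 accessory subunits and 6 of 7 assembly factors. The 3 members not called were Ndufa2, Ndufaf3 and Ndufa4l2, with slopes of 0.25, 0.15 and -0.0034. Without A5 35 members were called (4.6% of all genes) with a median of 0.66. Without C6 and A5 and with group in the model 0 were called, and 18 of 45 had a positive slope at an unadjusted p under 0.05 (2.78% of all genes), with a median slope of 0.43. Of the 13 genes themselves, 8 were called positive on Ucp1, and the 8 include Cidea, Otop1, Pdk4 and Fabp3. Dio2, Ebf2, Lhx8 and Slc27a2 were not called, with slopes of 0.30, 0.21, 0.49 and 0.60 (adjusted p = 0.298 to 0.658). Prdm16 was not called either and had a negative slope of -0.22 (adjusted p = 0.564).

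The nuclear-encoded genes of the other complexes were compared as a list fixed by complex. Of 42 such genes of complexes II to V, 32 were called positive on Ucp1 and 0 negative, and their median slope was 0.39. The counts were 4 of 4 for complex II, which passes electrons from succinate, 9 of 9 for complex III, 11 of 14 for complex IV and 8 of 15 for complex V, the ATP synthase. Their median slopes were 0.47, 0.47, 0.40 and 0.33, beside 0.36 for complex I. That last median covers the assembly factors and the Ndufa4 pair too, while core subunits of complex I had 0.45 and accessory subunits 0.36. The highest slope among the 42 genes was 0.75 for Cox7a1, a form of a complex IV subunit typical of muscle and brown fat. The mean log2 CPM of complex I minus that of complexes II to V stayed between -1.28 and -1.14 in controls and between -1.29 and -1.11 in AZ6983 mice, a narrow band beside the range of the complex I mean itself, 5.99 to 6.80.

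The rest of the core of complex I is encoded in mitochondrial DNA. Of the 5 such genes tested, 4 were called positive, with a median slope of 0.77, mt-Nd1 at 0.77 (adjusted p = 0.00146) and mt-Nd6 at 1.16 (adjusted p = 0.0121). The exception was mt-Nd5 (0.70, adjusted p = 0.139). Their mean was 9.67 to 10.40 log2 CPM in controls and 9.43 to 11.32 in AZ6983 mice, so the gap between A5 and the next mouse was wider than for the nuclear members. Nuclear minus mitochondrial log2 CPM was -4.52 in A5 and -4.01 to -3.29 in the other 11 mice. Of 10 assembly factors with other symbols 6 were called positive, such as Foxred1 (0.48) and Tmem70 (0.39), with a median slope of 0.29.

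**Figure D4:**
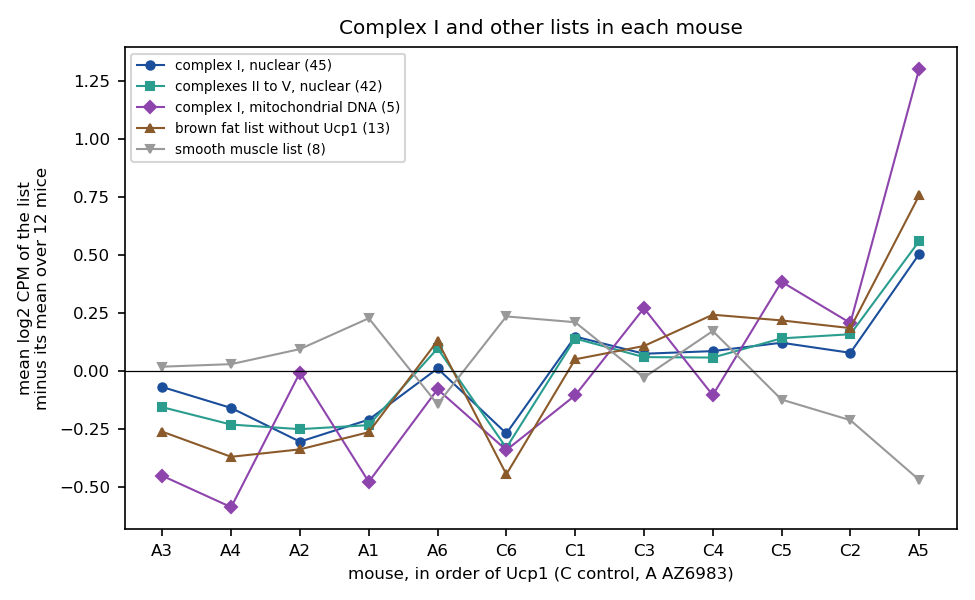
Mean log2 CPM of 5 lists in each mouse, minus the list's mean over 12 mice, with the mice in order of Ucp1 and the number of genes in brackets. The nuclear complex I line runs close to that of complexes II to V, the mitochondrial line is highest in A5, and the smooth muscle line is lowest there.

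Regulators of mitochondrial biogenesis were mixed. Of 11 listed, 4 were called positive on Ucp1: Esrra (0.40 ± 0.0947, adjusted p = 0.0349), Esrrg (0.88), Gabpa (0.25) and Ppara (0.69). Ppargc1a, the coactivator PGC-1α, ran from 18.0 CPM in C6 to 115 CPM in A5, with a slope of 0.69 ± 0.309 (adjusted p = 0.258). The transcript of Nrf1 had a slope of -0.13 (adjusted p = 0.558). The 9 members whose promoter window holds the NRF1 letters had a median slope of 0.39, and the other members with a window 0.36.

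Markers of other tissues that a dissected aorta can carry were read beside these results. Brown fat markers, Ucp1 included, summed to 3576 to 6253 CPM in controls and 3365 to 8702 CPM in AZ6983 mice, with Zic1 at or near 0 in every mouse. White fat markers, of which Plin1, Lipe and Fabp4 were called positive (3 of 10), summed to 3475 to 6695 and 4420 to 8220 CPM. Smooth muscle markers such as Acta2 and Myh11 summed to 14937 to 20034 and 11761 to 20016 CPM, lowest in A5, and 0 of 8 were called. With their mean in the model 14 members were called on Ucp1 (2.45% of all genes), with a median slope of 0.25. Heart muscle markers (0 of 9 called) and skeletal muscle markers (0 of 10) summed to 115 to 330 and 5.88 to 577 CPM in controls and to 87.9 to 277 and 17.7 to 574 CPM in AZ6983 mice, and 27 members were called with either list in the model (4.13% of all genes with the heart list and 3.97% with the skeletal list). Endothelial (0 of 5) and macrophage (0 of 5) markers summed to 899 to 1082 and 176 to 315 CPM in controls and to 993 to 1199 and 164 to 321 CPM in AZ6983 mice. The endothelial sum was higher in AZ6983 mice (exact permutation test, two-sided, p = 0.0368, unadjusted). Thymocyte markers (1 of 5 called, negative) summed to 1.93 to 24.3 and 5.39 to 957 CPM, the last in A4. Beyond these models, the part of each tissue in the slopes was not tested.

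AZ6983 and control mice did not differ in any member at 10% FDR. In the edgeR quasi-likelihood test 0 of 45 members and 0 of 15857 genes were called (0% in either direction). At an unadjusted p under 0.05 1 member was lower, Ndufaf4, against 2.81% of all genes lower and 7.38% higher. DESeq2 called 0 members and 0.369% of genes higher and 0.153% lower, and limma-voom called 0 members and 0% of genes. With quality weights limma-voom called 0 members too, but 7 were lower at an unadjusted p under 0.05, beside 5.9% of all genes. In that fit 44 of 45 members were below 0, and their median was -0.13 beside 0.014 for all genes. In the edgeR test the log2 fold change was below 0 for 36 of 45 members, beside 47.6% of all genes. The median was -0.06 beside 0.01 for all genes, and members vary together, so their signs are not separate results. The groups overlapped for all 45 members, whereas 0.41% of all genes had groups that did not overlap.

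Ndufaf4 had the lowest log2 fold change, -0.29 ± 0.126 (SE, unadjusted p = 0.0385, adjusted p = 0.475). The core subunit Ndufv1 was at -0.11 ± 0.151 (adjusted p = 0.813), and Ndufs1 was at -0.08 ± 0.171 (adjusted p = 0.888). Of the other members the 5 lowest were Ndufs4, Ndufb6, Ndufs5, Ndufa10 and Ndufb3, from -0.15 ± 0.144 to -0.12 ± 0.135. Ndufab1 was at -0.09 ± 0.19 (adjusted p = 0.888). Ndufa4l2 was the highest of all, at 0.13 ± 0.106 (adjusted p = 0.645), and the next among the accessory subunits were Ndufc2, Ndufa7, Ndufb10, Ndufb9 and Ndufb8, at 0.03, 0.03, 0.02, 0.02 and 0.00. The fold changes ran for accessory subunits from -0.15 to 0.03 and for assembly factors from -0.29 to 0.07. None of these passed 10% FDR.

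The value depended on A5. In A5 members were 1.07 to 2.09 times the median of the other 5 AZ6983 mice in CPM, with a median of 1.60, and 42 of 45 were above the highest control. The TMM factor of A5 was 0.837, against 0.987 to 1.07 in the other mice, which raises its CPM. As a share of raw counts the 45 members summed to 0.653% in A5 and 0.450% to 0.588% in controls. In the other 5 AZ6983 mice this share was 0.418% to 0.534%. Without A5 the log2 fold change was below 0 for 44 of 45 members, with a median of -0.21 beside -0.0068 for all genes. In that fit 21 members were lower at an unadjusted p under 0.05, beside 6.95% of all genes. These were 6 of 7 core subunits, 13 of 29 accessory subunits and 2 of 7 assembly factors. None of the 45 was called at 10% FDR there (lowest adjusted p = 0.13, Ndufaf4, at -0.44 ± 0.0905), while 0.0312% of genes were called higher and 0.137% lower. C6 lay on the other side, below the lowest of the other 5 controls for 42 of 45 members. Ucp1, called lower in AZ6983 without A5, was lowest in the same 5 AZ6983 mice and in C6.

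**Figure D5:**
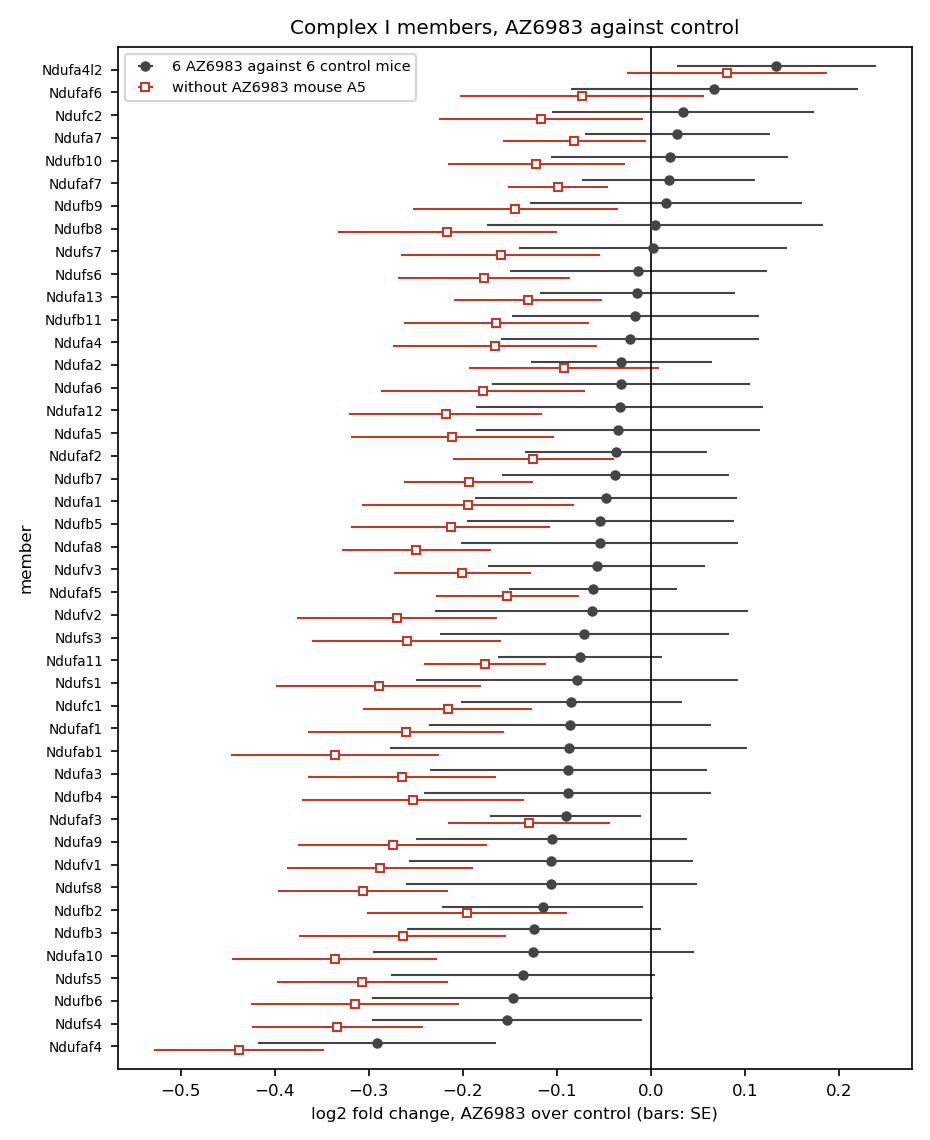
Log2 fold change of 44 of the 45 members, AZ6983 over control, with its SE, for all 12 mice (filled) and without A5 (open). The median of all 45 moves from -0.06 to -0.21, and Ndufaf4 is the lowest in both.

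With Ucp1 in the model the direction of the group difference turned. The median log2 fold change became 0.20, and 2 members, Ndufab1 (0.30, adjusted p = 0.0783) and Ndufb8 (0.35, adjusted p = 0.0988), were called higher in AZ6983, beside 3.27% of all genes called higher and 2.66% lower. At an unadjusted p under 0.05 20 members were higher, beside 11.4% of all genes. Without A5 and with Ucp1 in the model 0 members were called and the median was 0.06. With the 13 other brown fat genes in the model in place of Ucp1 the median was -0.0029 and 0 were called. With the percentage of reads outside genes added to the model instead it was 0.04 and 0 were called. In the main fit, without these covariates, 35 of 42 fold changes of complexes II to V were below 0, beside 47.6% of all genes. Their median was -0.04, and 0 were called in complexes II to V.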

How the data were processed

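Total RNA of the thoracic aorta of 12 mice was depleted of rRNA and sequenced with strand kept. The authors deposited raw counts per gene. The submitters' processing notes name CASAVA 1.8.2, STAR 2.5.2b and HTSeq 0.6.1p1 and the build mm10 (GRCm38), while the annotation is not given in the sources used here. Counts on genes were 23810036 to 35864666 per mouse, and 3 rows that name no gene (on no gene 8.02% to 14.9% of reads, not unique 18.1% to 23.2%, ambiguous 0.606% to 0.698%) were left out. The labels gave the groups, and the column of A1 carries 3 of the 4 digits of its mouse number. Column names end in a library number whose meaning is not given. Controls hold 3 to 7 and 12, and AZ6983 mice hold 1, 2 and 8 to 11. The number thus largely follows group, and its part in the values was not tested.

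Groups, slopes on Ucp1 and their interaction were tested with edgeR 4.0.16 (R 4.3.3; TMM, filterByExpr, quasi-likelihood F test) on the whole table, with Benjamini-Hochberg adjustment over all genes and a 10% FDR. The SE is the log2 value divided by the root of F. Log2 CPM used a prior count of 2. Single measures were compared by exact permutation over mice. DESeq2 1.42.0, limma 3.58.1 (voom), other normalizations and filters, covariates and left-out mice were the alternatives, 7 of them chosen after seeing the data. The scripts were tested on simulated data. 1 member, counted in all totals, is not reported here by name. Complex I members and gene lists were chosen with earlier results of these data known. Named were the core subunits, assembly factors, Ndufa4, Ndufa4l2, Ndufab1, Ndufa13, of the other members the 5 highest and 5 lowest by fold change and the 5 steepest and 5 flattest by slope, and any member called for group or interaction. Ndufb2 and Ndufb9 as the ends of the level order, and list genes other than Ucp1, Ppargc1a and Esrra, were named after their values were seen or as leading or called list members. mt-Nd4l and Coa1 were not analysed here.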

Additional observations from a re-analysis of the deposited data

Results flagged for a closer look

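Within each group of 6 mice, the highest or lowest mouse was set against the rest by Dixon's ratio of its gap to the range (95% critical value 0.625). Of 100 such groups examined 41 stood out, where chance flags about 1 in 20 groups, and members vary together, so these are not separate events. Most came from the same pair of mice.

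The control mouse C6 stood below the other 5 controls, in log2 CPM, for 24 members: Ndufa1 (6.16), Ndufa12 (6.22), Ndufa3 (6.27), Ndufa4 (7.97), Ndufa5 (5.93), Ndufa9 (7.14), Ndufab1 (6.45), Ndufaf4 (5.31), Ndufb10 (6.55), Ndufb11 (6.68), Ndufb3 (6.09), Ndufb4 (4.94), Ndufb5 (6.79), Ndufb6 (6.46), Ndufb8 (6.87), Ndufb9 (7.59), Ndufs1 (8.29), Ndufs3 (6.48), Ndufs4 (6.47), Ndufs6 (5.69), Ndufs8 (6.60), Ndufv1 (8.00), Ndufv2 (7.57) and Ndufv3 (6.96). Its means of the 45 members (6.03), of complexes II to V (7.17) and of the brown fat list without Ucp1 (5.66) stood apart in the same direction.

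The AZ6983 mouse A5 stood above the other 5 AZ6983 mice for 11 members: Ndufa12 (7.21), Ndufa13 (7.57), Ndufa8 (7.05), Ndufab1 (7.64), Ndufaf4 (5.90), Ndufaf7 (4.91), Ndufb11 (7.58), Ndufb7 (6.74), Ndufs4 (7.27), Ndufs8 (7.52) and Ndufv2 (8.57). Its Ucp1 (11.86) and its mean of the mt-Nd genes (11.32) did so as well. Elsewhere only Ndufa4l2 stood out, low in C4 (2.16). In C6 and A5 brown fat markers summed to 3576 and 8702 CPM and smooth muscle markers to 20034 and 11761 CPM, the extremes of each among their groups, and the part of these tissues in the values was not tested beyond the models above.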

How the results depend on the processing

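No paired analysis was possible because the labels give mouse numbers and no replicate numbers shared between groups. For the group comparison 0 members were called except with Ucp1 in the model (2, median 0.20). That model turned Ndufab1 to 0.30, Ndufs1 to 0.26, Ndufs4 to 0.13, Ndufb6 to 0.12, Ndufs5 to 0.14, Ndufa10 to 0.20 and Ndufb3 to 0.13. With A5 also left out, Ndufab1 was 0.24, Ndufs1 0.17, Ndufs4 0.0074, Ndufs5 0.044, Ndufa10 0.063 and Ndufb3 0.14. Leaving out 1 mouse gave group medians of -0.21 to -0.018, and limma-voom with quality weights gave -0.13.

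Of the slopes on Ucp1, 28 were called, against 13 by library size only (which moved the median of all genes from -0.04 to -0.16), 1 in control mice alone, 4 without A4 and A5, 14 with the smooth muscle list in the model and 8 by the Spearman permutation test. Of all 15856 genes, 783 were called positive in the main fit, 256 by library size only and 213 by the Spearman test. The shares for the other 3 settings are given above. Without C6 and A5 and with group in the model 0 were called, on Ucp1 or on the brown fat list. The median slope was 0.68 on the brown fat list, 0.66 on it without A5, and 0.039 on Ucp1 without C6 and A5 with group. Leaving out 1 mouse gave 14 (without A5, 364 of 16010 genes) to 38 (without A3, 998 of 15986 genes) called, with medians of 0.29 to 0.46. DESeq2 called 38 (1188 of 16459 genes positive), RLE scaling 33 (872 of 15856) and limma-voom 28 (738 of 15856). Limma-voom with quality weights called 22 (550 of 15856) and no filter 34 (896 of 25283).

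Without C6 and A5 and with group in the model 27 of all 45 slopes on Ucp1 were above 0, against 44. Of those followed, these turned: Ndufs7 (-0.48), Ndufaf3 (-0.28), Ndufa4 (-0.15), Ndufa13 (-0.17), Ndufa7 (-0.31), Ndufb10 (-0.0079), Ndufa2 (-0.52), Ndufa11 (-0.28) and Ndufb2 (-0.28). By library size only Ndufaf3 (-0.010) and Ndufa2 (-0.020) turned. Ndufa4l2 turned with the percentage of reads outside genes (0.0054), no filter (0.015), group (0.080) or the cardiac muscle list (0.011) in the model and in AZ6983 mice alone (0.13), and ran from -0.093 to 0.031 when 1 mouse was left out. The causes were not tested. Over 9 members followed through the settings, 230 group values kept direction and side of the threshold and 13 turned, while over all 45 members 43 were above 0 with Ucp1 in the model, against 9. For the slopes of 27 members 748 kept both, 69 gained and 54 lost the call, and 20 turned.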
